A study of Mus musculus with 2 samples.

Results

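The glucocorticoid-responsive genes described here are Tsc22d3, Klf9, Fkbp5, Per1, Dusp1 and Nr3c1, 6 of the 32285 genes counted in immune cells of mouse melanomas. They were chosen with earlier results from these libraries in view. The choice used their raw counts in NK, T, B, monocyte and macrophage cells, their shared difference between the libraries and their detection together with Nr3c1, the gene of the glucocorticoid receptor. Their levels, ratios and detection with Nr3c1 are therefore a description and carry no test. The labels name no treatment with a glucocorticoid, so the name of the set rests on what the genes are known for and not on a response measured in these cells.

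Glucocorticoids are steroid hormones of the adrenal cortex, and corticosterone is the main one in mice. In the absence of hormone the receptor is held in the cytoplasm by heat shock proteins and their partners. With hormone bound it enters the nucleus, binds response elements in DNA and raises the transcription of genes such as Tsc22d3 and Fkbp5, while it lowers many inflammatory cytokine and chemokine genes. In immune cells these hormones are known for restraining inflammation and T cell activation. Several of these genes also answer to other inputs: Per1 and Klf9 to the circadian clock, and Dusp1 to stress and growth signals.

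The cells were live CD45+ cells sorted from subcutaneous tumours of B6 mice on day 14 after injection. The tumours grew from B16.SIY, a mouse melanoma line with a model antigen, transduced with a lentivirus for control shRNA (first group) or Decr2 shRNA (second group) and kept in puromycin at 1.5 µg/mL for 3 days. Decr2 codes for a peroxisomal enzyme of fatty acid breakdown, and the shRNA was given to the tumour cells, not to the sorted immune cells or their hosts. There was 1 library per group, and the number of mice behind each is not given in the sources used here. A difference between the libraries thus cannot be told apart from a difference between tumours, mice or library preparations. The time of day at which the tumours were taken is not given in the sources used here.

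Values are counts of unique molecular identifiers (UMIs), each marking an RNA molecule captured, summed over the cells of a type and scaled to a total of 1000000 UMIs of that type (CPM). Ranges in brackets after a level, a share or a ratio are exact 95% intervals for counting error only, and a ratio is the Decr2 shRNA level over the control shRNA level. The libraries held 47538493 UMIs in 11335 barcodes (control) and 55417986 UMIs in 9542 barcodes (Decr2 shRNA), of which 8949 and 6897 passed as cells. Cells were assigned to a type by marker genes, here called a gate, which placed 5759 control and 4258 Decr2 shRNA cells in the 5 gates. The NK gate held 2357 and 1706 cells, the T gate 2196 and 1610, the monocyte gate 922 and 717, the B gate 203 and 147, and the macrophage gate 81 and 78. Cells of the Decr2 shRNA library were deeper in 4 of these gates, with median UMIs of 3631.5 against 2447 in NK cells and 6952 against 4816 in monocytes. The sets of barcodes shared 34 sequences, 24 of them kept in both libraries, and 0 of the shared barcodes held identical counts. Since these markers set the gates, their sums only describe the gates and do not check them. The 7 NK markers summed to 4401 and 4275 CPM in the NK gate, and the 6 T cell markers there to 83.8 and 115 CPM. Decr2 itself had 21 UMIs in control and 10 in Decr2 shRNA melanoma cells, at 6.75 (4.18 to 10.3) and 3.71 (1.78 to 6.83) CPM, so that a lower level was not detectable at this depth.

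Nr3c1 (ENSMUSG00000024431, chromosome 18), whose protein is known to induce the other members, differed little between the libraries. It stood at 129 (120.0 to 138) CPM in control NK cells and at 124 (116 to 132) in Decr2 shRNA NK cells, from 834 and 868 UMIs. In T cells it stood at 83.0 (78.6 to 87.7) and 89.6 (85.4 to 93.9) CPM, and in monocytes at 70.5 (62.9 to 78.7) and 73.7 (66.3 to 81.7). The ratios were 0.963 (0.874 to 1.06) in NK cells, 1.08 (1.00 to 1.16) in T cells and 1.05 (0.898 to 1.22) in monocytes. In both libraries NK cells lay above T cells and monocytes without overlap of their intervals, while T cells and monocytes overlapped slightly in the control library and lay apart in the Decr2 shRNA library. B cells (112 and 95.5 CPM) and macrophages (78.2 and 74.7 CPM), with 27 to 42 UMIs per library, could not be placed apart from their neighbours in that order. Regulatory T cells, a small subset of the T gate with Foxp3, had a higher Nr3c1 ratio than CD8 T cells. Their Nr3c1 was at 102 (74.7 to 136) CPM in 88 control cells and 174 (146 to 205) CPM in 95 Decr2 shRNA cells. The ratio was 1.70 (1.21 to 2.43), on 46 and 141 UMIs, whereas that in CD8 T cells was 1.011 (0.929 to 1.10). In the control library the intervals of regulatory and CD8 T cells (69.2 to 78.5 CPM) overlapped. Regulatory T cells were deeper in the Decr2 shRNA library, with median UMIs of 6947 against 3602.5. Thinned to equal depth, as described below, 13.8% (7.34 to 22.9) of 87 control and 11.6% (5.92 to 19.8) of 95 Decr2 shRNA cells held Nr3c1. These shares did not separate the libraries.

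Tsc22d3 (ENSMUSG00000031431, chrX:140539528-140600659 on GRCm38, minus strand) codes for the leucine zipper protein GILZ, which binds inflammatory transcription factors and is among the best known glucocorticoid targets of lymphocytes. It stood at 128 (119 to 137) CPM in control NK cells and 219.8 (209 to 231) in Decr2 shRNA NK cells, from 829 and 1542 UMIs. The ratio of 1.72 (1.58 to 1.87) was the highest of the 6 genes in this gate. In monocytes Tsc22d3 was at 58.9 (52.0 to 66.4) and 97.5 (89.0 to 107) CPM, for a ratio of 1.65 (1.42 to 1.93). T cells had 51.2 (47.7 to 54.9) and 70.1 (66.4 to 73.9) CPM, giving a ratio of 1.37 (1.252 to 1.49). B cells held the most Tsc22d3 of the gates in both libraries, at 620.5 (539.6 to 710.1) and 703 (627 to 786) CPM, with a ratio of 1.13 (0.948 to 1.36). The level in macrophages, 75.3 and 87.6 CPM from 26 and 34 UMIs, was not separable between the libraries. Tsc22d3 was thus higher in the Decr2 shRNA library, beyond counting error, in the 3 gates with the most cells.

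Fkbp5 (ENSMUSG00000024222, chr17:28399094-28517527, minus strand) codes for FKBP51, a partner of Hsp90 that lowers the affinity of the receptor for hormone and so acts as feedback. In monocytes it had 29 control and 107 Decr2 shRNA UMIs, or 6.45 (4.32 to 9.26) and 21.5 (17.7 to 26.0) CPM. The ratio of 3.34 (2.20 to 5.23) was the largest of any member in a gate with at least 20 UMIs per library. NK cells had 25.9 (22.1 to 30.1) and 38.2 (33.8 to 43.1) CPM, for a ratio of 1.48 (1.21 to 1.80). In T cells the levels were 25.3 (22.8 to 27.9) and 30.5 (28.1 to 33.0) CPM, for a ratio of 1.21 (1.06 to 1.37), from 391 and 594 UMIs. Without proliferating cells the T cell ratio was 1.10, on 174 and 242 UMIs, a move of less than its counting error. In both libraries Fkbp5 was lower in monocytes than in NK and T cells, with intervals apart. B cells had 1 control UMI and 12 Decr2 shRNA UMIs, for a ratio of 9.28 with a counting interval from 1.37 to 397. Melanoma cells that passed the sort went the other way, with 34.1 (27.9 to 41.2) and 24.5 (18.9 to 31.2) CPM. The ratio there was 0.719 (0.521 to 0.987).

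Klf9 (ENSMUSG00000033863, chr19:23141226-23168134, plus strand) codes for a zinc finger transcription factor that is a direct receptor target in many tissues. Monocytes held 36.9 (31.5 to 43.0) CPM in the control library and 82.8 (75.0 to 91.2) in the Decr2 shRNA library, from 166 and 411 UMIs. This was the highest Klf9 level of the 5 gates in the Decr2 shRNA library, and its ratio was 2.24 (1.87 to 2.70). In NK cells Klf9 was at 17.9 (14.8 to 21.4) and 26.8 (23.1 to 30.9) CPM, for a ratio of 1.50 (1.18 to 1.91). T cells had the lowest level, 5.36 (4.27 to 6.65) and 5.49 (4.50 to 6.64) CPM. The ratio there was 1.02 (0.762 to 1.38). That interval includes 1 as well as the T cell ratios of Tsc22d3 and Per1. Regulatory T cells had 0 UMIs of Klf9 in the control library, which allows up to 6.65 CPM (3 counts), and 9 in the Decr2 shRNA library, or 11.1 (5.07 to 21.0) CPM. The 7 UMIs of each library in B cells and the 5 and 11 in macrophages allow no statement about Klf9 there.

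Per1 (ENSMUSG00000020893, chr11:69095217-69109960, plus strand), a core repressor of the circadian clock and a rapid hormone target, was at 50.5 (44.1 to 57.5) CPM in control monocytes and 84.6 (76.7 to 93.1) in Decr2 shRNA monocytes. Its ratio there was 1.68 (1.42 to 1.98). NK cells had 33.1 (28.9 to 37.9) and 45.0 (40.2 to 50.3) CPM, for a ratio of 1.36 (1.14 to 1.62). T cells had 23.1 (20.7 to 25.6) and 30.4 (28.0 to 32.9) CPM, for a ratio of 1.32 (1.15 to 1.51). The 3 ratios lay on the same side of 1, and that of monocytes was the highest of them. Macrophages had 13 and 28 UMIs, a ratio of 1.92 (0.960 to 4.03). B cells pointed the other way, with 79.4 (52.3 to 116) and 56.9 (36.8 to 83.9) CPM. Their ratio of 0.716 (0.399 to 1.28), on 27 and 25 UMIs, does not separate the libraries.

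Dusp1 (ENSMUSG00000024190, chr17:26505590-26562128, minus strand), a phosphatase that switches off MAP kinases, had smaller ratios than these 4 genes in NK cells and monocytes. Monocytes held 1098 (1068 to 1129) and 1274 (1243 to 1306) CPM from 4942 and 6326 UMIs, a ratio of 1.16 (1.12 to 1.20). NK cells held 378 (363 to 393) and 405 (390.3 to 420.2) CPM, for a ratio of 1.07 (1.02 to 1.13). T cells held 95.8 (90.9 to 101) and 96.3 (92.0 to 101) CPM, for a ratio of 1.006 (0.939 to 1.08). Dusp1 was highest in monocytes and macrophages (1005 and 1146 CPM), lower in NK cells, and lowest in T cells in both libraries. Among CD8 T cells the ratio was 0.910 (0.835 to 0.991), and among cells in no gate 0.901 (0.861 to 0.944), so that Dusp1 had no common direction across the cell types.

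**Figure D1:**
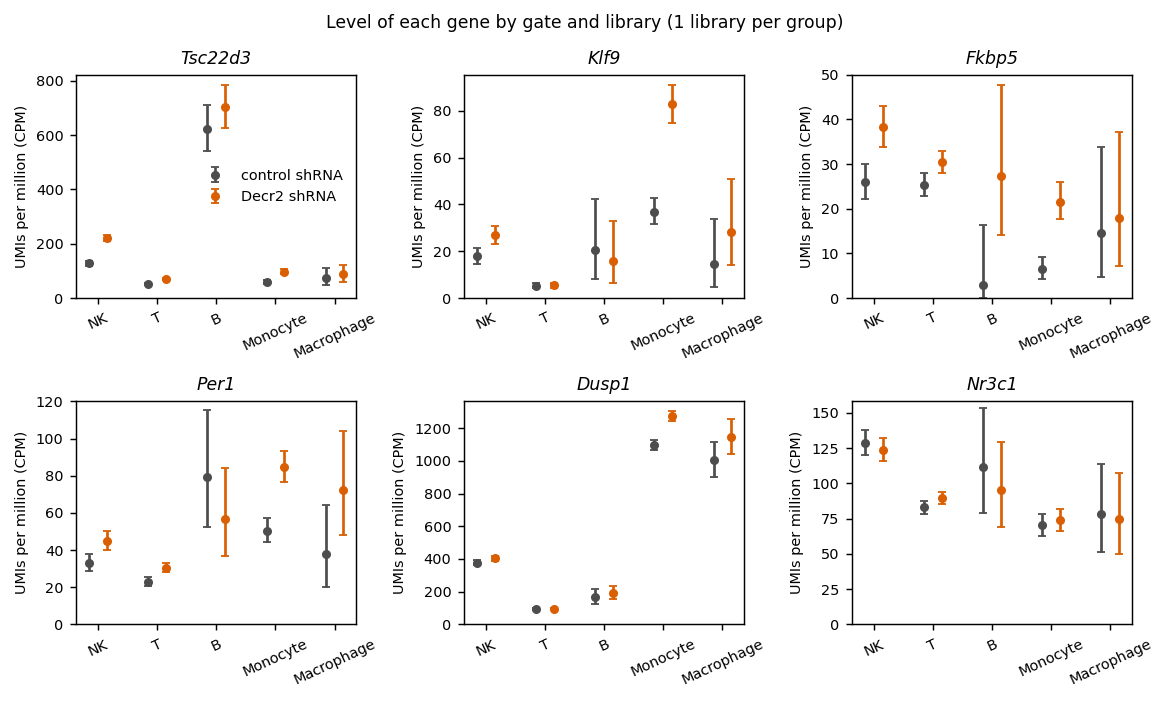
Level of each gene (CPM, vertical axis of each panel) in the NK, T, B, monocyte and macrophage gates (horizontal axis), for the control shRNA library (grey) and the Decr2 shRNA library (orange). Points are sums over the cells of a gate and bars are 95% counting intervals. Tsc22d3 is at 128 and 219.8 CPM in NK cells while Nr3c1 is at 129 and 124.

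**Figure D2:**
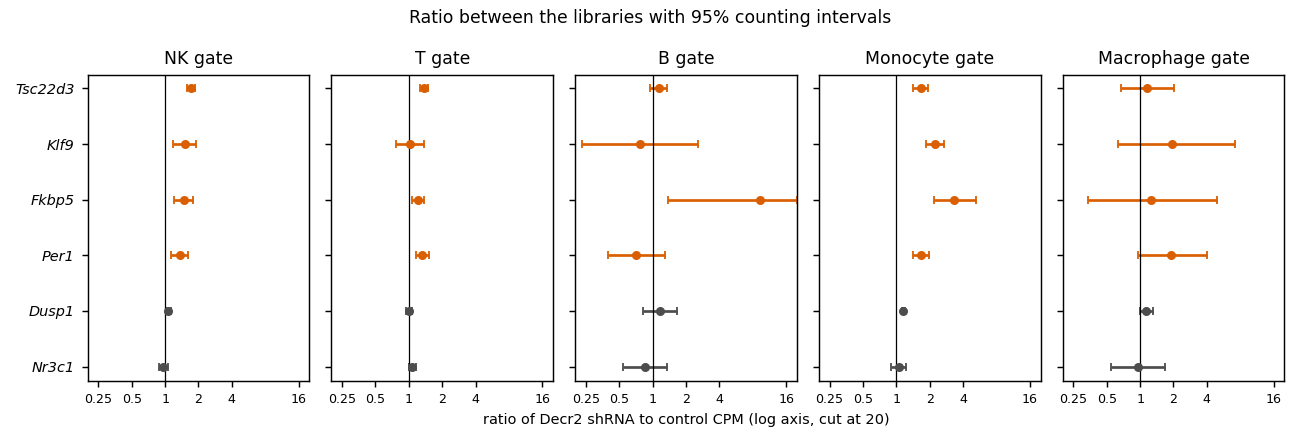
Ratio of Decr2 shRNA to control CPM (log axis, cut at 20) for the 6 genes in each gate, with 95% counting intervals. In the NK and monocyte gates Tsc22d3, Klf9, Fkbp5 and Per1 lie above 1 with their intervals, and Dusp1 and Nr3c1 lie near 1.

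Members at least 25% higher or at least 20% lower in the Decr2 shRNA library were counted as past a fixed fold, among genes that had 30 UMIs or more in the libraries together and reached 50 CPM in either. Genes can pass that minimum through the library where they are higher, as Klf9 did in monocytes and Per1 in macrophages. The counts are therefore read only against the other genes. Under it 1 of 3 measured members was higher in NK cells (Tsc22d3), where 2.5% of all genes were past the fold in that direction, and 0 of 3 were lower, against 1.49%. In T cells 1 of 3 was higher (Tsc22d3), against 2.05% of all genes, and 0 lower, against 1.44%. Monocytes had 3 of 5 higher (Klf9, Per1 and Tsc22d3), against 6.71%, and 0 lower, against 4.95%. In B cells 0 of 4 were higher, against 22.5%, and Per1 was lower, against 18.7%. Macrophages had 1 of 4 higher (Per1), against 22.9%, and 0 lower, against 24.2%. The high background of the B and macrophage gates goes with their few UMIs. With the minimum set at 30 UMIs alone, members higher were 4 of 6 in NK cells (background 10.2%), 2 of 6 in T cells (7.56%) and 4 of 6 in monocytes (11.7%). Since these same ratios chose the members, nothing is read from the counts.

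The 5 members other than Nr3c1 were matched by symbol to the RefSeq promoter windows on GRCm38.p6, which list 3 transcription start sites for Tsc22d3 and 2 for Per1. The 250 bases before each start were searched on both strands for the hexamer AGAACA that a single receptor molecule can bind (it reads as TGTTCT on the opposite strand), the full palindromic element AGAACANNNTGTTCT, the E-box CACGTG bound by clock factors, and the cAMP response element core TGACGT, which reads as ACGTCA on the opposite strand, and its full form TGACGTCA, which contains the core. For each gene the first listed start with a match to at least 1 of these motifs is shown, with the matches in capitals, and parts that GENCODE M21 marks as exon are left out. The windows are chrX:140600660-140600772 (minus strand) for Tsc22d3, chr19:23140976-23141225 (plus) for Klf9, chr17:28486150-28486399 (minus) for Fkbp5, chr11:69098699-69098947 (plus) for Per1 and chr17:26508520-26508722 (minus) for Dusp1, each written 5′ to 3′.
Tsc22d3: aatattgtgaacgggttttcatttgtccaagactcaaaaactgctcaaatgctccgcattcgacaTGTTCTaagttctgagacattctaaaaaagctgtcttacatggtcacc
Klf9: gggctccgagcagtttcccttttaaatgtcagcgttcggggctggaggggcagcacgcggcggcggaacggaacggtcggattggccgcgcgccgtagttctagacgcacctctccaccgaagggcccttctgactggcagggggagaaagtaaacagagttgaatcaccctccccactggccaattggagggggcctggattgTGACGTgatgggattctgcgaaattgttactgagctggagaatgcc
Fkbp5: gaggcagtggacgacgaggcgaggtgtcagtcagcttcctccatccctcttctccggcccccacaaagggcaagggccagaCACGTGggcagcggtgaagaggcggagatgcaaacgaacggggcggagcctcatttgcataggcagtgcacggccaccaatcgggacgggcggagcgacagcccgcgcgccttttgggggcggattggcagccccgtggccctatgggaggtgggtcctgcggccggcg
Per1: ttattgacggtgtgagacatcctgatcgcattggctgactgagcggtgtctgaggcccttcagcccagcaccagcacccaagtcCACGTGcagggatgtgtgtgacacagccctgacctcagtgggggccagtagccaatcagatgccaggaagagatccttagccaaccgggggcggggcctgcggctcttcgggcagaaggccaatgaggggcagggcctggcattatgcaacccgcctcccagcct
Dusp1: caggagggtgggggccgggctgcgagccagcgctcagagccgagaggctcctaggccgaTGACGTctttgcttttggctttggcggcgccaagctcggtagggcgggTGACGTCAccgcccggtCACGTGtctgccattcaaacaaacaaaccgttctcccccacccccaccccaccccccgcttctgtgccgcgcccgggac

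The receptor hexamer was matched before 1 of the 3 Tsc22d3 starts, 185 bases upstream, and before no start of the other 4 genes. The hexamer is common, in 16.1% of the 32851 promoter windows listed. The full element occurred in 3 windows of the table (0.00913%) and in none of those of the members. The E-box was found before Fkbp5 (169 bases upstream), the first Per1 start (166) and Dusp1 (126), against 6.02% of all windows. The cAMP core lay before Klf9 (46 bases upstream), the second Per1 start (132) and Dusp1 (191, 143 and 141), against 6.47%, and the full form was in the Dusp1 window alone, against 1.55%. The Dusp1 matches at 143 and 141 overlap and are a single full form read on both strands. These matches describe the letters of the windows, which are short, and say nothing about binding in these cells.

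The difference was next followed in clusters of cells built without the members or the lists of pathway genes given below. The 15 clusters with at least 100 cells in each library had a ratio above 1 in 13 for Tsc22d3, 12 for Klf9, 13 for Fkbp5 and 14 for Per1. The Klf9 count and median include 1 cluster with 0 control UMIs and 3 Decr2 shRNA UMIs. Median ratios over the clusters were 1.38, 1.48, 1.40 and 1.32 in the same order, and the intervals were clear of 1, above it, in 11, 5, 7 and 6 clusters. Dusp1 was above 1 in 8 of the 15 (median 1.02) and Nr3c1 in 8 (median 1.006), and neither was past the fold upwards in any of them. Dusp1 was past it downwards in 1 cluster, and its interval lay above 1 in 3 clusters and below 1 in 3. Ratios above 1 of the 4 other genes thus occurred in lymphoid and myeloid clusters, and those of Dusp1 and Nr3c1 centred near 1. Clusters share their libraries and are not replicates, and their borders depend on how the cells are grouped. They regroup the cells whose counts chose the members, and shares of all genes are not given for them. The cluster counts are therefore a description only.

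Among clusters with 5 or more control UMIs of the gene, the 2 largest ratios of Klf9 and the 3 largest of Fkbp5 came from myeloid clusters. The cluster led by Lyz2 and Chil3, which takes up most of the monocyte gate, had ratios of 1.76 (1.46 to 2.12) for Tsc22d3, 2.18 (1.79 to 2.66) for Klf9, 3.79 (2.34 to 6.42) for Fkbp5 and 1.74 (1.43 to 2.11) for Per1. The cluster led by Cd209a with MHC class II genes had 1.33 (1.12 to 1.58) for Tsc22d3, 2.28 (1.61 to 3.29) for Klf9, 3.19 (1.70 to 6.42) for Fkbp5 and 1.66 (1.31 to 2.11) for Per1. Dusp1 separated these clusters, at 1.17 (1.12 to 1.22) in the first and 0.914 (0.855 to 0.977) in the second. The cluster led by S100a9 and S100a8, whose gated cells fell mainly in the monocyte gate (69.6%), had Tsc22d3 at 60.6 and 103 CPM, a ratio of 1.70 (1.21 to 2.41). Its Fkbp5 ratio was 3.88 (1.39 to 13.4) on 5 and 18 UMIs, and its Klf9 interval included 1 on 17 and 25 UMIs. The monocyte gate therefore pools cells of several myeloid clusters. Over all cells of the clusters, Tsc22d3 and Fkbp5 were higher in 3 of them and Klf9 and Per1 in 2. Only 44.6% of the cells of the Cd209a cluster and 44.7% of the S100a9 cluster were gated. The ratios of these clusters are thus not those of the monocyte gate. Markers of dendritic cells moved with the library in this gate: the 7 listed summed to 60.9 CPM in the control (6 detected, Fscn1 at 0) and 124 CPM in the Decr2 shRNA library (4 detected, Xcr1, Siglech and Fscn1 at 0), and their part in the result was not tested.

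In the 3 NK clusters Tsc22d3 was higher, and Klf9 was higher in 2. Ratios of Tsc22d3 were 1.59 (1.46 to 1.73) in the cluster led by Klra4 and Car2, 1.72 (1.48 to 1.99) in that led by Gzma and Klra9, and 1.68 (1.17 to 2.43) in that led by Krt83 and Xcl1. Klf9 stood at 1.49 (1.17 to 1.90) in the Klra4 cluster and 1.48 (1.03 to 2.17) in the Gzma cluster. In the Krt83 cluster Klf9 was at 0.661 (0.298 to 1.43), on 18 and 13 UMIs. Fkbp5 was at 1.18 (0.957 to 1.46) in the Klra4 cluster, where the interval included 1, against 1.48 in the NK gate. In the Gzma cluster Fkbp5 was at 1.40 (1.04 to 1.90). In the Krt83 cluster it was at 2.52 (1.08 to 6.54), on 8 and 22 UMIs. Per1 was at 1.41 (1.18 to 1.69) in the Klra4 cluster. Its intervals included 1 in the Gzma cluster, at 1.32 (0.949 to 1.85), and in the Krt83 cluster, at 1.05 (0.610 to 1.80). Nr3c1 had intervals that included 1 in all 3, with ratios of 0.986, 1.04 and 0.973.

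Among T cell clusters the one led by Gzmf, Cxcr6 and Cd8b1 had Tsc22d3 at 1.36 (1.17 to 1.58), Per1 at 1.36 (1.10 to 1.68) and Dusp1 at 0.804 (0.714 to 0.906). Dusp1 was therefore lower there while Tsc22d3 and Per1 were higher. The cluster led by histone genes and Top2a, genes of dividing cells, had Tsc22d3 at 1.38 (1.18 to 1.62). The cluster led by Trdc, Il7r and Tcf7, of which 33.3% of cells were gated, had the highest Tsc22d3 ratio among these clusters, 1.66 (1.47 to 1.87), from 153 and 253 CPM. In the cluster led by Il17a, Il7r and Rora, Per1 was at 52.0 and 90.1 CPM, for a ratio of 1.73 (1.22 to 2.48), and Nr3c1 at 219 and 273 CPM, for a ratio of 1.248 (1.04 to 1.49), where no other cluster had an Nr3c1 interval clear of 1. The cluster led by Tnfrsf4 and Foxp3, wider than the regulatory T cells counted by marker above, had Nr3c1 at 169 and 180.3 CPM, a ratio of 1.07 (0.889 to 1.29), and Tsc22d3 at 1.06 (0.819 to 1.39). The intervals of Nr3c1 and Tsc22d3 thus included 1 in that cluster. Its Klf9 had 1 and 17 UMIs, for a ratio of 9.36 with a counting interval from 1.47 to 391.

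The B cell cluster, led by Iglc1 and Cd79a, had Tsc22d3 at 621 and 737 CPM, for a ratio of 1.19 (1.03 to 1.37), and Per1 at a ratio of 0.781 (0.510 to 1.20). The clusters with a Tsc22d3 ratio under 1 were the one led by Siglech, a gene of plasmacytoid dendritic cells, at 225 and 219 CPM (ratio 0.976, 0.765 to 1.2505), and the one led by haemoglobin genes, at 187 and 172 CPM (ratio 0.919, 0.637 to 1.33), whose median depth was only 780.5 and 966 UMIs.

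**Figure D3:**
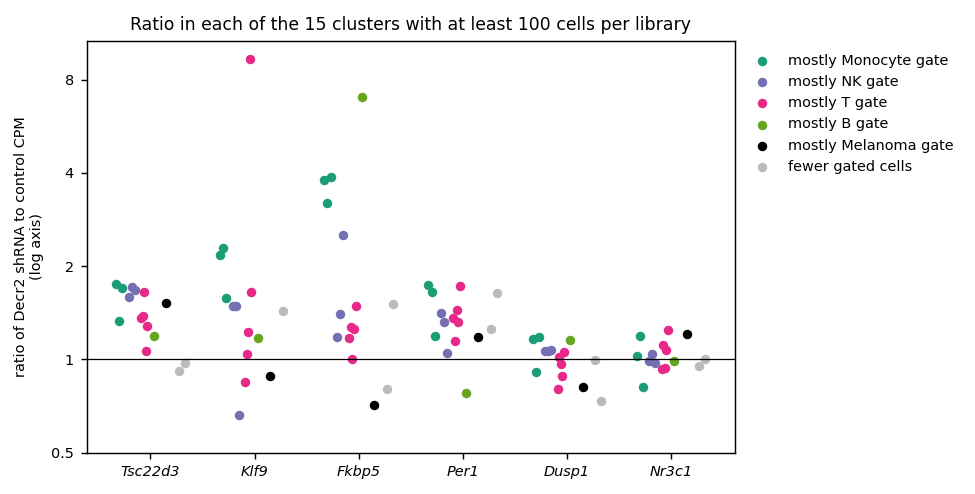
Ratio of Decr2 shRNA to control CPM (log axis) in each of the 15 clusters with at least 100 cells per library, 1 point per cluster and gene, coloured by the gate that most of its gated cells hold (grey for 2 clusters with few gated cells). A cluster with 0 control UMIs has no point for that gene. Tsc22d3 and Fkbp5 lie above 1 in 13 of 15 clusters and Per1 in 14, and Dusp1 and Nr3c1 scatter around 1.

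To compare cells at equal depth, each cell was thinned to 1000 UMIs and the share with at least 1 UMI of a gene was taken. In NK cells Tsc22d3 was found in 12.2% (10.9 to 13.6) of 2321 control cells and 20.7% (18.8 to 22.7) of 1682 Decr2 shRNA cells, and in 26.6% and 53.8% before thinning. Fkbp5 was found in 2.15% (1.60 to 2.83) and 4.70% (3.74 to 5.82), and Per1 in 2.84% (2.21 to 3.60) and 4.99% (4.003 to 6.15). Nr3c1 was found in 12.4% (11.1 to 13.8) and 12.5% (10.9 to 14.2). Dusp1 was found in 28.8% (27.0 to 30.7) and 33.2% (30.9 to 35.5). Klf9 was found in 1.81% (1.31 to 2.44) and 3.15% (2.37 to 4.10). At equal depth the intervals of Tsc22d3, Fkbp5, Per1 and Dusp1 lay apart in NK cells, and those of Klf9 and the receptor overlapped. In 918 and 715 monocytes Klf9 was found in 3.70% (2.58 to 5.14) and 8.25% (6.34 to 10.5), Tsc22d3 in 5.23% (3.88 to 6.87) and 9.65% (7.59 to 12.1) and Per1 in 4.47% (3.22 to 6.01) and 9.51% (7.46 to 11.9). Fkbp5 was in 0.545% (0.177 to 1.27) and 2.38% (1.39 to 3.78) of monocytes, and Dusp1 in 53.3% (50.0 to 56.5) and 62.4% (58.7 to 65.9). The unthinned shares in monocytes were 13.4% and 34.6% for Klf9 and 3.04% and 12.6% for Fkbp5. In T cells 7.67% (6.59 to 8.88) and 10.5% (9.03 to 12.1) held Tsc22d3, and 13.3% (11.9 to 14.8) and 16.9% (15.1 to 18.8) at least 1 of Tsc22d3, Klf9, Fkbp5 and Per1. The T cell shares of Fkbp5, 2.13% (1.56 to 2.83) and 2.44% (1.74 to 3.32), and of Per1, 3.10% (2.41 to 3.92) and 4.12% (3.202 to 5.22), overlapped at this depth.

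Cells holding several of these transcripts were rare in both libraries. At least 1 of Tsc22d3, Klf9, Fkbp5 and Per1 was found in 18.3% (16.7 to 19.9) of control and 30.9% (28.7 to 33.2) of Decr2 shRNA NK cells, and at least 2 in 0.732% (0.427 to 1.17) and 2.56% (1.86 to 3.43). In monocytes the shares were 13.5% (11.4 to 15.9) and 26.4% (23.2 to 29.8) for at least 1, and 0.436% (0.119 to 1.11) and 3.08% (1.94 to 4.62) for at least 2. Most cells with a transcript of these genes thus held only 1 of them at this depth. The control NK cell with the most Tsc22d3 held 0.724% of its UMIs in that gate, so no single cell set the level.

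RNA freed from other cells can place UMIs in a droplet, so genes of other types were read in the same thinned cells. Gzma, a granzyme of NK cells, was in 92.4% and 93.5% of NK cells and in 5.99% (4.54 to 7.73) and 6.43% (4.75 to 8.49) of monocytes. Its level in monocytes was 0.909% and 1.18% of that in NK cells. At that proportion NK cell RNA would bring 0.235 and 0.449 CPM of Fkbp5 into the monocyte gate, whose levels were 6.45 and 21.5 CPM, and 0.313% to 3.65% of the level of any member. Chil3 of monocytes was in 0.0431% and 0.119% of NK cells, and the B cell gene Cd79a in 0 of 2321 and 0 of 1682 thinned NK cells, which by a limit of 3 counts allows shares of up to 0.129% and 0.178%.

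**Figure D4:**
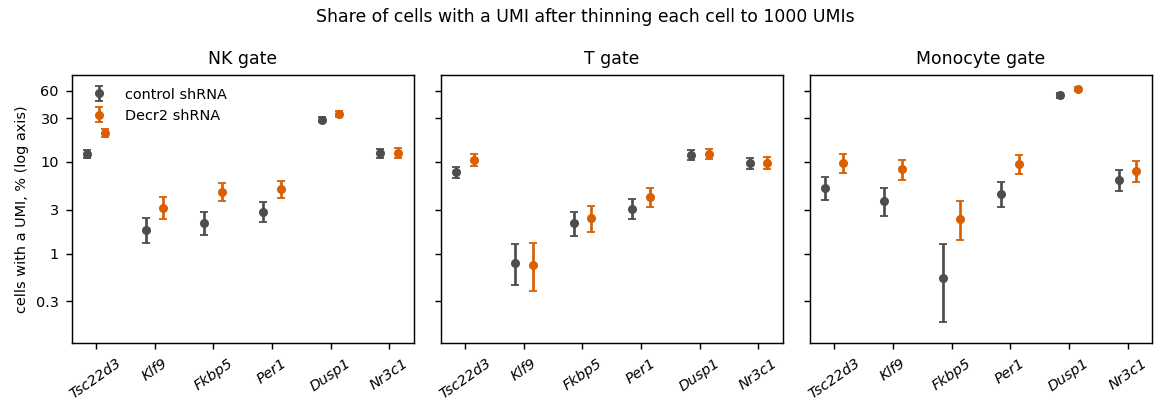
Share of cells (%, log axis) with at least 1 UMI of each gene after thinning every cell to 1000 UMIs, in the NK, T and monocyte gates of the control (grey) and Decr2 shRNA (orange) libraries, with exact 95% binomial intervals. Nr3c1 is level in NK cells at 12.4% and 12.5%, and Klf9 in monocytes is at 3.70% and 8.25%.

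Detection of the targets in cells with and without an Nr3c1 UMI was compared within each library, again at 1000 UMIs. In control NK cells Tsc22d3 was in 16.3% (12.2 to 21.1) of 288 cells with an Nr3c1 UMI and 11.6% (10.2 to 13.1) of 2033 cells without. In Decr2 shRNA NK cells it was in 21.0% (15.7 to 27.1) of 210 and 20.7% (18.6 to 22.8) of 1472. The difference was 4.71 points (0.378 to 9.69) in the control and 0.30 points (-5.42 to 6.77) in the Decr2 shRNA library, so that only the control interval was clear of 0. Over the NK, T and monocyte gates, the 5 genes and both libraries, the share was higher in cells with the receptor UMI in 19 of 30 comparisons and lower in 11. The interval of the difference lay above 0 in 3 of the 30 and below 0 in 0. Besides Tsc22d3 in control NK cells these were Tsc22d3 in control T cells, at 11.5% of 208 cells against 7.26% of 1955 (difference 4.28 points, 0.083 to 9.54), and Dusp1 in Decr2 shRNA T cells, at 20.6% (14.6 to 27.9) of 155 cells against 11.3% (9.75 to 13.1) of 1446 (difference 9.30 points, 2.98 to 16.7), while the control T cells gave 12.5% (8.33 to 17.8) and 11.9% (10.5 to 13.4). These intervals cover counting error alone and were not adjusted for the 30 comparisons. For Klf9, Fkbp5 and Per1 no difference was detectable at this depth. A cell without an Nr3c1 UMI is not a cell without the receptor, since most molecules of a gene at this level are not captured.

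**Figure D5:**
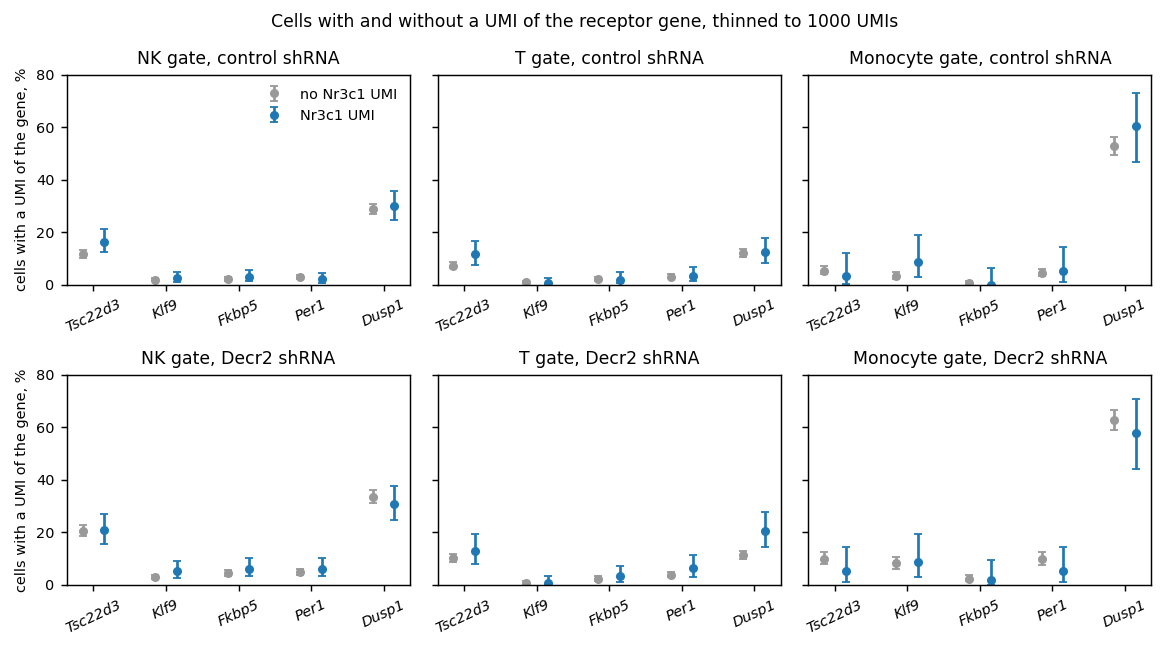
Share of cells (%) with a UMI of each target among cells with no Nr3c1 UMI (grey) and with an Nr3c1 UMI (blue), by gate (columns) and library (rows), each cell thinned to 1000 UMIs, with exact 95% binomial intervals. The intervals overlap in all of the 30 pairs of points but 1, Dusp1 in Decr2 shRNA T cells.

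Levels over the 10 combinations of gate and library gave each gene a profile, compared by Pearson r of log2(CPM + 1) across 4556 genes. Closest to Tsc22d3 were Usp9x (r = 0.985), Itsn2 (0.983) and Smg1 (0.980). Closest to Nr3c1 were Mir142hg (0.980), Mirt1 (0.974) and Rictor (0.974). Among the members the profile of Tsc22d3 had an r of 0.575 with Nr3c1, 0.481 with Per1, 0.127 with Klf9 and -0.282 with Dusp1, while Fkbp5 passed the minimum in no gate. The members thus had different distributions over the cell types, Tsc22d3 led by B cells and Dusp1 and Klf9 by monocytes. These 10 points come from 2 libraries and are a description.

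The wider pathway was read from lists of related genes. Of 17 genes of the receptor machinery, which hold the receptor and switch genes with it, 13 were measured in NK cells. Higher was 1 of them, against 2.5% of all genes, and lower 0, against 1.49%. The higher one was Crebbp, a histone acetyltransferase, at 67.5 and 90.2 CPM (ratio 1.34, 1.18 to 1.51). The 11 measured in T cells and the 8 in monocytes all lay between the fold limits. Hsp90aa1, the stress-inducible form of the Hsp90 chaperone that holds the receptor, had ratios of 0.914 (0.885 to 0.942) in NK cells, 0.829 (0.815 to 0.844) in T cells and 0.916 (0.882 to 0.953) in monocytes. In B cells its ratio was 0.773 (0.679 to 0.880), while in macrophages it was above 1, at 1.40 (1.22 to 1.61). Hsd11b1, which turns inactive glucocorticoid into active hormone, was at 156 and 142 CPM in NK cells, a ratio of 0.913 (0.836 to 0.997). In the list the median log2 ratio was 0.07 in NK cells, -0.09 in T cells and 0.12 in monocytes, where the median of all measured genes was between -0.02 and -0.00.

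Other genes known to be induced by glucocorticoids were read in the same way. Of 21 listed, 10 were measured in NK cells, 2 of them higher, against 2.5% of all genes, and 1 lower, against 1.49%. The pro-apoptotic gene Bcl2l11 was at 201 and 255 CPM (ratio 1.27, 1.18 to 1.36), the chemokine receptor gene Cxcr4 at 152 and 189.9 (1.2507, 1.15 to 1.36), and Anxa1, which codes for the anti-inflammatory annexin A1, at 128 and 98.4 (0.771, 0.696 to 0.854). In T cells 4 of 11 were higher, against 2.05%, and 0 lower, against 1.44%, with the interleukin 7 receptor gene Il7r at 46.3 and 81.6 CPM (1.76, 1.61 to 1.93) and the metallothionein gene Mt1 at 339 and 483 (1.42, 1.38 to 1.47). In monocytes 1 of 13 was higher, Il7r (1.68, 1.37 to 2.08), against 6.71%, and 1 lower, against 4.95%. The lower one was Errfi1, a feedback inhibitor of the EGF receptor, at 76.0 and 44.3 CPM (0.583, 0.490 to 0.692). Il7r, at 31.3 and 52.8 CPM in monocytes, reached 50 CPM only in the Decr2 shRNA library there and in T cells. Errfi1 reached it only in the control library. The count of 1 of 13 higher in monocytes lies near the share of all genes. Medians of the list were 0.18, 0.20 and 0.05 (log2) in NK cells, T cells and monocytes. With the minimum at 30 UMIs alone they were 0.17, 0.03 and 0.09.

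Genes that glucocorticoids are known to lower differed by cell type. In T cells 4 of 5 measured were lower, against 1.44% of all genes, and 0 higher, against 2.05%. Among the lower ones were the chemokine genes Ccl4 (465 and 299 CPM, ratio 0.642, 0.621 to 0.665), Ccl5 (0.681, 0.672 to 0.689) and Ccl3 (0.741, 0.706 to 0.777). NK cells had 1 of 5 lower, Ccl3 (0.795, 0.761 to 0.831), against 1.49%, and 0 higher, against 2.5%. Monocytes had 2 of 9 higher, Tnf (1.30, 1.21 to 1.40) and Ccl3 (1.254, 1.20 to 1.31), against 6.71%. They had 2 lower, against 4.95%, the monocyte attractant Ccl2 (0.760, 0.729 to 0.793) and the prostaglandin synthase gene Ptgs2 (0.799, 0.751 to 0.850). Macrophages had 5 of 10 higher, against 22.9%, and 1 lower, against 24.2%. B cells had 0 of 2 higher, against 22.5%, and 1 lower, against 18.7%. The list's median log2 ratio was -0.19 in NK cells, -0.43 in T cells and -0.07 in monocytes. With the minimum at 30 UMIs alone these medians were -0.14, -0.33 and 0.08, so the monocyte median changed sign. Of the 14 clock genes only Bhlhe40 was abundant enough to be measured in these 3 gates. It stood at 382 and 379.9 CPM in NK cells (0.995, 0.942 to 1.05), and Per1 itself passed that minimum among these gates only in monocytes. At 30 UMIs alone, 9 clock genes were measured in NK cells, with 1 higher, against 10.2% of all genes, and 0 lower, against 8.66%. The higher one was Clock, with 113 and 159 UMIs (1.30, 1.02 to 1.67). In T cells 10 were measured, 0 of them higher, against 7.56%, and 3 lower (Dbp, Nr1d2 and Hlf), against 8.84%. In monocytes 5 were measured, with 1 higher (Arntl), against 11.7%, and 0 lower, against 14.3%. The other period genes, Per2 and Per3, had 16 or fewer UMIs per library in each of these gates. The genes named at this lower minimum were chosen after their values had been seen.

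Genes known to be induced by tissue digestion were also counted. The heat shock genes Hspa1a and Hspa1b, near-identical copies whose reads cannot be assigned to either with certainty, had ratios of 0.648 (0.617 to 0.680) and 0.618 (0.583 to 0.655) in NK cells, 0.406 (0.390 to 0.423) and 0.423 (0.399 to 0.448) in T cells, and 0.595 (0.577 to 0.614) and 0.514 (0.487 to 0.542) in monocytes. Of 15 genes of this list, 13, 12 and 15 were measured in NK cells, T cells and monocytes. In that order 1, 0 and 1 were higher (Egr1 in both cases, at 1.34 and 1.252), against 2.5%, 2.05% and 6.71% of all genes. Lower were 2, 4 and 3, against 1.49%, 1.44% and 4.95%. Most of the list, 10, 8 and 11 genes, lay between the fold limits. Egr1 in NK cells, at 43.5 and 58.4 CPM, reached 50 CPM only in the Decr2 shRNA library. Macrophages had 7 of 15 genes of this list higher, against 22.9%, and 2 lower, against 24.2%. B cells had 0 of 13 higher, against 22.5%, and 8 lower, against 18.7%. The part of digestion in the ratios of the members was not tested. In monocytes without a UMI of Fos, Hspa1a or Hspa1b at 1000 UMIs, the Tsc22d3 ratio was 2.23 on 25 and 118 UMIs and the Klf9 ratio 4.55 on 13 and 125, while that of Fkbp5 was 1.58 on 9 and 30. The Tsc22d3 and Klf9 ratios were larger than in all monocytes and that of Fkbp5 was smaller, on few UMIs. In NK cells so restricted the ratios of Tsc22d3 (1.61, on 433 and 889 UMIs), Klf9 (1.31), Fkbp5 (1.28) and Per1 (1.32) were smaller. In T cells those of Tsc22d3 (1.48) and Klf9 (1.12) were larger, and those of Fkbp5 (1.16) and Per1 (1.29) smaller. Each of these NK and T cell ratios moved by less than its counting error.

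Depth moved with the library, and restricting cells to 2000 to 4000 UMIs changed some ratios. In NK cells of that depth Tsc22d3 had a ratio of 1.97, Fkbp5 1.95, Dusp1 1.26 and Nr3c1 1.17. In T cells of that depth all 5 of Tsc22d3 (2.49), Fkbp5 (2.51), Per1 (1.97), Dusp1 (1.87) and Nr3c1 (1.83) were higher, the receptor among them. Monocytes of that depth had 58 and 17 UMIs of Tsc22d3, a ratio of 1.24, and 36 and 20 of Per1, a ratio of 2.34. Their Klf9 ratio was 1.41 on 24 and 8 UMIs, their Fkbp5 ratio 2.11 on 8 and 4, and their Nr3c1 ratio 0.703 on 54 and 9. These counts are too small to judge the monocyte result within this range of depth. In the monocytes thinned to equal depth above, the shares of Tsc22d3, Klf9, Fkbp5, Per1 and Dusp1 were higher in the Decr2 shRNA library. Their intervals lay apart, while those of Nr3c1 overlapped. The part of depth in the ratios was not tested. Paralogs of the members were read last: Dusp2, a phosphatase of activated lymphocytes related to Dusp1, was at 1266 and 1689 CPM in NK cells (1.33, 1.30 to 1.37) and 401 and 531 in T cells (1.33, 1.28 to 1.37), where Dusp1 had 1.07 and 1.006. The Tsc22d3 relatives Tsc22d2 (1.12, 0.969 to 1.30) and Tsc22d4 (0.979, 0.903 to 1.06) had intervals that included 1 in NK cells.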

How the data were processed

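Single-cell RNA was counted in 1 control shRNA and 1 Decr2 shRNA library. The deposited counts are UMIs per gene and barcode, for which Cell Ranger 6.1.2, Seurat 4.3 and mm10 are named, per the submitters' processing notes. The annotation release is not given in the sources used here.

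Cells with at least 200 genes, 500 UMIs and at most 10% mitochondrial UMIs were kept, and the highest Scrublet scores (exact neighbours, scanpy 1.11.5, Python 3.11.15) removed at 0.8% per 1000 barcodes. A cell entered a gate with at least 2 markers of a list and at least 80% of its lineage-list UMIs on it. Myeloid cells were split into monocytes and macrophages by 7 and 8 further genes, and the others stayed ungated. UMIs were summed per library and gate, with exact Poisson, Clopper-Pearson and conditional binomial 95% intervals for counting error. Intervals of a difference of shares combine the Clopper-Pearson limits by square and add. No test was made, each group being 1 library. Clusters used 2000 variable genes, 30 components, and Leiden clustering (resolution 1) of a graph of shared nearest neighbours (15 per cell). Members and pathway lists were left out, except a list of 11 proliferation genes, and no integration was made. The neighbour graph was chosen after the data had been seen, because an earlier one gave other clusters on other processors.

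The members and lists were chosen with earlier results of these data known. Text names all members and, per list and gate, up to 3 genes on either side, ranked by the interval bound nearest 1 among genes at 30 UMIs and 50 CPM, with the 3 genes most alike in profile. Alternatives covered cell filters, gating, scaling, weighting, depth, fold and minimum. Simulated ratio intervals held the true ratio in 95.9% of genes of the monocyte comparison, drawn with Poisson error alone.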

Additional observations from a re-analysis of the deposited data

Results flagged for a closer look

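Fkbp5 lay past the fold in opposite directions in melanoma cells and in 3 immune gates, each with an interval clear of 1. Its ratio of Decr2 shRNA to control CPM was 1.48 in NK cells, 3.34 in monocytes and 9.28 in B cells (1 and 12 UMIs), against 0.719 in melanoma cells. In T cells, at 1.21 (1.06 to 1.37), it was above 1 but within the fold limit. The difference between these ratios was not tested. The melanoma cells, which carry the shRNA, were 119 and 136 in number with median depths of 6654 and 1632 UMIs, and their other members had ratios between 0.855 and 1.27 with intervals that included 1. In the cluster led by the pigment genes Dct and Pmel the Fkbp5 ratio was 0.713 (0.517 to 0.977).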

How the results depend on the processing

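Of 383 alternative values of the log2 ratios of the 6 genes in 5 gates, over 13 settings, 345 moved by less than their counting error, 37 moved by more and 1 turned direction from a reported interval clear of 1. That was Nr3c1 in T cells, at -0.10 when 95% of lineage UMIs were required (0.11 as reported). A further 35 values fell on the other side of 1 from reported ratios whose intervals include 1. In all 24 of the 36 such values were in B cells and macrophages, 5 were Klf9 in T cells and 2 Nr3c1 in NK cells. Log2 Tsc22d3 ratios ranged from 0.68 to 0.98 in NK cells, with 0.98 at 2000 to 4000 UMIs (0.78 as reported), and from 0.31 to 1.16 in monocytes, with 0.31 at 2000 to 4000 UMIs and 1.16 without cells holding Fos, Hspa1a or Hspa1b (0.73 as reported). The restriction to 2000 to 4000 UMIs, and the minimum of 30 UMIs alone, were chosen after the data had been seen. Of the 30 member-by-gate pairs 6 were past the fold upwards, and 11 at 2000 to 4000 UMIs, 13 with no minimum and 11 at 30 UMIs without a CPM minimum. The pair past it downwards (1, Per1 in B cells) became 0 with doublets kept and at a fold of 1.5, and 2 with classes from joint clusters and with no minimum. The minimum acts through the number of genes measured, and the cause of the other changes was not tested. Among all genes of NK cells the share past the fold upwards was 2.5% at the reported minimum and 10.2% at 30 UMIs alone. Shares of all genes at 2000 to 4000 UMIs and with no minimum are not given here, so nothing is read from these counts. The excess of Tsc22d3 in NK cells with an Nr3c1 UMI ranged from 2.54 to 7.49 points in the control (4.71 as reported) and from -2.65 to 3.63 in the Decr2 shRNA library (0.30 as reported), each within counting error of the reported value. No paired analysis was possible because each group has 1 library, and for the same reason no library could be left out. Cluster borders, and so values in small clusters, depend on the neighbour graph. Counting error limits B cells and macrophages most.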

Other observations

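Cells that entered no gate, 2965 in the control and 2420 in the Decr2 shRNA library, had ratios above 1 for 4 of the 6 genes. Klf9 was at 18.5 and 27.7 CPM (ratio 1.50, 1.23 to 1.83), Per1 at 40.1 and 57.0 (1.42, 1.24 to 1.63), Tsc22d3 at 141 and 196 (1.40, 1.30 to 1.50) and Fkbp5 at 20.8 and 27.2 (1.31, 1.09 to 1.59). Nr3c1 in these cells was at 133 and 132 CPM, for a ratio of 0.995 (0.920 to 1.08).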
